A study of Homo sapiens with 6 samples.

Results

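SKBR3 cells, a human breast adenocarcinoma line with amplified HER2 (ERBB2), were compared with and without extra cortactin (CTTN) at the level of the places where each gene's transcripts begin. The members described here were start groups, that is, sets of assembled transcripts of a gene that share a first base. A start group was kept when its mean over the 6 libraries was at least 200 estimated reads, when its gene had at least 2 such start groups, and when its gene name was single. The members were thus selected on their measured read counts. This rule took 8898 of the 132223 start groups listed, or 6.73%. It took 15287 start groups on the read minimum alone. For 170 kept start groups the partner start carried a joined gene name, which left 8728 in 3490 assembled loci, called genes here, each with 2 or more. In some loci, holding 547 of the starts, the kept starts carry more than 1 gene name. The kept starts held 57.4% of all reads. The measure was the share of a start, its percentage of the reads of all kept starts of the same gene in the same library. The read minimum used the values of all 6 libraries, so the levels at the threshold are only a description: the closest starts inside it, in CDK8 and TXNDC15, had a mean of 200 reads, and the closest outside, in TAF15 and PLEKHG5, had 199.9 reads. In 1048 members the mean lay under 200 reads in 1 of the groups, 702 passing only through the CTTN group and 346 only through the control group.

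Both groups came from SKBR3 cells stably infected with a lentivirus and selected with puromycin. The 3 control libraries carried the empty pLVX vector and the 3 CTTN libraries carried pLVX with CTTN cDNA, which encodes an actin-binding protein of the cell cortex. The sources call the 3 libraries of a group biological replicates and do not say whether a line was 1 clone or a pool. Polyadenylated RNA was sequenced as stranded libraries, with 35695339 to 39318390 estimated reads per library. Epithelial and HER2 markers were high in every library, with 1644 to 1790 FPKM (read counts scaled for transcript length and library depth) for ERBB2 and 132 to 177 for EPCAM, and the defining markers of other cells were near 0, with at most 0.251 FPKM for VIM and 0.199 for PTPRC. COL1A1, a collagen chain of fibroblasts, was the exception among these, with 2.83 to 4.26 FPKM in the 6 libraries, while its partner chain COL1A2 had at most 0.163. CTTN, the introduced gene, had 10912, 11228 and 11265 estimated reads in the controls and 29088, 37144 and 18999 in the CTTN libraries. CTTN rose 2.55-fold (log2 1.35, SE 0.22, adjusted p = 0.0276), with 3.82% of the 14433 genes tested passing. The call was lost without control 1, control 2, control 3 or CTTN library 1 (adjusted p 0.137 to 0.170), although all 3 CTTN libraries lay above all controls. Without CTTN libraries 1 and 3 the log2 change was 1.73. In bulk RNA, more cells with the vector and more transcript per cell cannot be told apart.

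CTTN libraries 1 and 3 stood apart from the other 4. Between controls the median difference of a start's share was 1.98 to 2.78 percentage points. It was 2.30 to 3.40 points between CTTN library 2 and a control, 4.76 to 5.50 for CTTN library 1, and 10.6 to 12.1 for CTTN library 3. Transcripts longer than 5 kb held 18.3, 19.3 and 19.8% of the reads in the controls and 14.0, 19.3 and 9.94% in CTTN libraries 1, 2 and 3. RNA quality values were not given in the sources used here, and the part of these differences between libraries in the results was not tested. The calls of the tests, the share differences and the gene lists are therefore given also without CTTN libraries 1 and 3.

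A gene with more than 1 promoter can begin its transcripts at different first exons. Where the start codon lies downstream of both first exons, the alternative starts give the same protein with different leaders, and where it does not, they give proteins with different N termini, such as the long and short tropomyosins of TPM1. Alternative promoters are well known in genes of nuclear receptors, lipid synthesis and the cytoskeleton. In libraries made from polyadenylated RNA, reads near the 3′ end of a transcript can also be assembled into a shorter transcript with a start of its own, so that a start group is an assembled first base and not by itself a promoter.

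Sequences around the annotated starts were taken from RefSeq (GRCh38), from 250 bases before the RefSeq start through 30 bases counted from the first kept start in the window. They are shown for 5 genes on which the results below turn: GUSB and CCT3, each with 2 kept starts within 1 window, SF3B1 and CHD9, whose other starts lie far downstream, and TPM1, whose internal start has a window of its own. Capitals mark the bases at which a kept start group begins.
GUSB, chr7:65982184-65982463, minus strand: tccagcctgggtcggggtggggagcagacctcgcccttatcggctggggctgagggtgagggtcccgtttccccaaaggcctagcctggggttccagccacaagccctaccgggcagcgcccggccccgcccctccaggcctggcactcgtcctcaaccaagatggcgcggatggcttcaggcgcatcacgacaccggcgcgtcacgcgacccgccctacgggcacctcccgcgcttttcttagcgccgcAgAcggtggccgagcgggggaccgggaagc
CCT3, chr1:156338263-156338542, minus strand: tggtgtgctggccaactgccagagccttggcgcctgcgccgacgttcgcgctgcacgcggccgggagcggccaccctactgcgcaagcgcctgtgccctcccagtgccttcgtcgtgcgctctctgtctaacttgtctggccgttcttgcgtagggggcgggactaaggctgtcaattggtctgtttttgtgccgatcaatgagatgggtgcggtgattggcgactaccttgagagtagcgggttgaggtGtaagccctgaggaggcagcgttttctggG
SF3B1, chr2:197434999-197435278, minus strand: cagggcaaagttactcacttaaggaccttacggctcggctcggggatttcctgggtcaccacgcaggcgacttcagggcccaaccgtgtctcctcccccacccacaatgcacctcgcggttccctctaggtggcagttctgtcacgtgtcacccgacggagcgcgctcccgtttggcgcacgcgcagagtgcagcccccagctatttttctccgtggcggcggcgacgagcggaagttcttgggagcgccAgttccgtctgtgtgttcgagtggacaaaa
CHD9, chr16:53054741-53055020, plus strand: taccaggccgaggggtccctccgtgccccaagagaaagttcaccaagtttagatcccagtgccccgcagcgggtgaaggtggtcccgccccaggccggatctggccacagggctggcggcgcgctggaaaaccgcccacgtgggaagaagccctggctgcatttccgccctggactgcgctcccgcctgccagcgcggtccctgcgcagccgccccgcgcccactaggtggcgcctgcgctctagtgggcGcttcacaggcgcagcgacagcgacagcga
TPM1, chr15:63048239-63048500, plus strand: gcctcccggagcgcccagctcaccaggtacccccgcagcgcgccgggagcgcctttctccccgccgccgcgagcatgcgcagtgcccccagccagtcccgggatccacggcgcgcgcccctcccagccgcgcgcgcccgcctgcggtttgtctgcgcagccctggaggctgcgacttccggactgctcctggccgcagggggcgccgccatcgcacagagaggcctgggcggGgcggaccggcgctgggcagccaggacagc
The GUSB window holds the starts of 2 groups at positions 1 and 3 counted from the RefSeq start, and the CCT3 window holds them at positions 1 and 30. The TPM1 capital lies 18 bases before the RefSeq start, so that this window is shorter, at 262 bases. None of the 5 windows holds TATAAA on either strand, 4 hold GGGCGG on either strand, and only that of CCT3 also holds CCAAT. CG pairs numbered 23 to 34 in these windows. Over the 3340 RefSeq windows (250 bases before a RefSeq start and 30 from it on) that could be paired with a member, TATAAA was present in 4.61%, GGGCGG in 74.0% and CCAAT in 35.8%, against 11.2, 44.1 and 33.6% of all 35116 windows. The median number of CG pairs was 27 against 13. The window of CTTN was not analysed here.

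Most of the genes used a few starts and leaned on 1 of them. Of the 3490 genes, 2378 (68.1%) had 2 kept starts, 719 had 3, 253 had 4 and 140 had 5 or more. The leading start held a median of 73.2% of its gene's reads in the controls, with quartiles at 60.0 and 86.5%. In 624 genes (17.9%) it held more than 90%. In 403 genes (11.5%) at least 2 starts each kept 30% or more in all 6 libraries. The 3 controls had the same leading start in 3181 genes (91.1%), and all 6 libraries in 2201 (63.1%). In these 3181 genes, a start other than that of the controls led in 63 in CTTN library 2, 281 in CTTN library 1 and 923 in CTTN library 3. The median range of a share was 4.24 points within the controls and 13.7 points within the CTTN group.

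**Figure D1:**
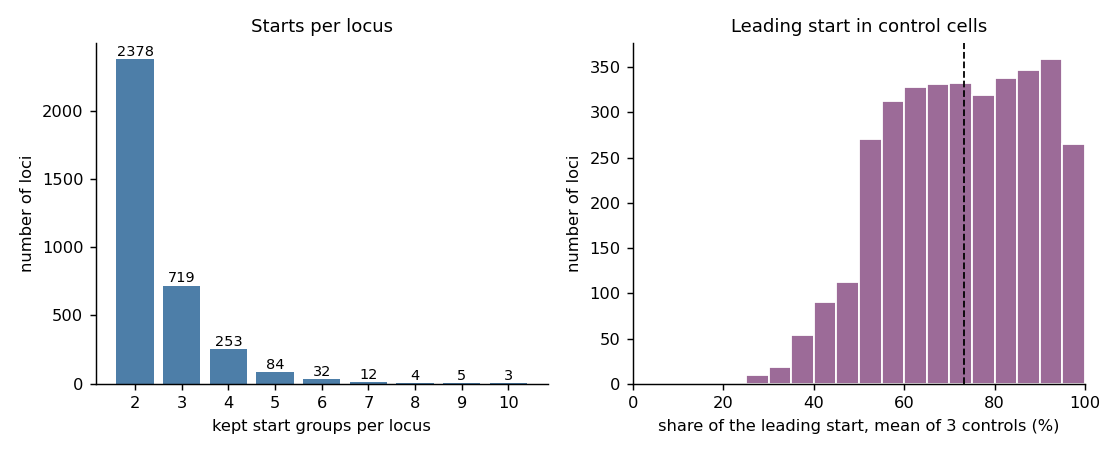
Left, number of genes (assembled loci) by their number of kept starts. Right, number of genes by the share of the leading start, in percent of the gene's kept reads as the mean of the 3 controls, with a dashed line at the median of 73.2%. Most genes (2378) have 2 kept starts, and the leading start holds over 90% in 624.

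Position was described in 2215 genes with 2 kept starts and 1 gene name. A start was placed at the annotated first base of its most-read transcript that matched the annotation, so that 2 starts can carry the same base. The starts lay a median of 1921 bases apart, with quartiles at 226.5 and 22848 bases. They lay at the same base in 87 genes (3.93%), 1 to 100 bases apart in 344 (15.5%), more than 100 and up to 500 bases apart in 353 (15.9%), more than 500 bases and up to 10 kb apart in 651 (29.4%) and farther in 780 (35.2%). In 1262 genes the transcripts used to place both starts had an annotated start codon, which was the same in 769 (60.9%). The shared codon was found in 91.3% of pairs at the same base, 85.0% of those within 100 bases and 27.0% of those more than 10 kb apart.

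The transcript annotated for a start was protein coding in 6214 members (71.2%), with a retained intron in 1209 (13.9%), without a defined coding sequence in 646 (7.40%) and subject to nonsense-mediated decay, the pathway that removes RNAs with early stop codons, in 372 (4.26%). A splice form not in the annotation led 1008 members (11.5%). Of 8708 members with a position, 3904 (44.8%) began within 50 bases of a RefSeq start. The figure was 55.9% for protein-coding starts, 42.1% for decay targets, 10.2% for starts with no defined coding sequence and 8.56% for retained-intron starts. The name of multi-promoter gene therefore holds for these genes only as far as their start groups are promoters, and the members are called starts here.

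Starts far downstream held more of their gene's reads in 2 of the CTTN libraries. In the 1431 genes with 2 starts at least 500 bases apart, the downstream start had a median share of 24.2, 22.4 and 22.2% in the controls and of 32.6, 20.03 and 45.5% in CTTN libraries 1, 2 and 3. CTTN library 3 was the highest, CTTN library 1 followed, and CTTN library 2 lay below every control, so the groups overlapped (22.9 ± 1.10% against 32.7 ± 12.8%, SD, n = 3 each, two-sided exact permutation p = 0.4, where the design allows 0.1 at the lowest). More than 10 kb apart, the medians were 21.2, 17.1 and 16.8% against 32.4, 15.2 and 52.1%. There the downstream start was 10 or more points higher in the CTTN mean in 411 of 780 genes and that much lower in 29. Within 100 bases these numbers were 39 and 29 of 344. The downstream start led in 22.4, 20.5 and 20.5% of the 1431 genes in the controls and in 28.4, 21.0 and 45.9% in CTTN libraries 1, 2 and 3, values that also overlapped for CTTN library 2 and the controls.

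The same split was seen by transcript length and type. In 1295 genes a start led by a transcript at least 500 bases shorter than its partner was 10 or more points higher in the CTTN mean in 457 and lower in 49. It was that much higher in 30.9, 1.78 and 53.1% of the genes in CTTN libraries 1, 2 and 3 taken singly, and that much lower in 4.56, 4.56 and 9.27%, so that in CTTN library 2 it was lower more often than higher. Retained-intron starts had a mean share of 15.9, 14.4 and 14.8% in the controls and of 18.7, 14.0 and 25.6% in the CTTN libraries. Starts with no defined coding sequence had 20.3, 18.6 and 18.4% against 25.4, 17.9 and 35.6%, and protein-coding starts had 47.7, 48.2 and 48.2% against 46.4, 48.4 and 43.6%. CTTN library 2 lay within 1 point of the control range in each of these types, and the exact permutation p was 0.4 in each.

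Which starts took a different share of their gene with extra CTTN was tested with edgeR over all 30126 starts that could be tested, by comparing the log2 change of a start with that of its gene. Of the 8858 members tested, 28 had an adjusted p under 0.05 (0.316%, against a background, the same share over all tested starts, of 0.292%), 26 with a larger share (background 0.202%) and 2 with a smaller share (background 0.0896%). At an unadjusted p under 0.05 there were 412 (4.65%, background 3.87%). Adding a difference of at least 10 points left 17 members, or 0.192% of those tested, against a background of 0.119%. In 15 the share was gained (background 0.0963%) and in 2 it was lost (background 0.0232%). The read minimum itself favours such starts: 10 of the 15 had a control mean under 200 reads and were kept only through the CTTN group, and the lost start of CHD9 was kept only through the controls. With at least 200 reads asked of each group, 6 of the 17 remained, so the comparison with the background is a description. In backgrounds of point difference or overlap, here and below, a start's share is that of all tested starts of its gene. For members it is that of the kept starts, so the 2 figures are not measured alike. In 9 of the 17 the groups did not overlap. With no minimum difference, the groups did not overlap in 1202 of the 8728 members, against a background of 14.5%. In the 15 that gained, CTTN library 3 was the highest and CTTN library 1 the second highest.

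The first of the starts that lost share was that of CTTN itself. Its upstream start, at position 70398404 of chromosome 11 on the plus strand, had 2962, 2830 and 2951 reads in the controls and 435, 571 and 1180 in the CTTN libraries. Its share was 27.6, 25.6 and 26.8% in the controls and 1.5, 1.56 and 6.32% in the CTTN libraries. Every CTTN library lay far below every control, CTTN library 3 being the nearest. The share fell by 23.5 points (26.7 ± 1.02% to 3.13 ± 2.76%, SD, n = 3 each, log2 change relative to the gene -3.34, adjusted p = 0.00138).

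The second CTTN start lies 125 bases downstream, at 70398529, and leads to the same start codon through a transcript of the same length, 3272 bases. It had 7419, 7820 and 7676 reads in the controls and 28229, 35737 and 17395 in the CTTN libraries. Its share was 69.2, 70.7 and 69.7% against 97.7, 97.6 and 93.1%, again without overlap, but its change relative to the gene did not pass the test (log2 0.48, adjusted p = 1). The third CTTN start, of a retained-intron transcript, had 3.20, 3.68 and 3.45% against 0.82, 0.89 and 0.56%. The introduced cDNA and the gene on the chromosome share coding sequence, and the counts do not tell their transcripts apart. Without CTTN libraries 1 and 3 the upstream start had an adjusted p of 2.56e-11. When 1 library at a time was left out, it passed without CTTN library 2 or CTTN library 3, and its adjusted p was 0.0574 to 0.0964 without any of the others.

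CHD9, a chromodomain helicase that remodels chromatin, had the other start that lost share. This start, at position 53156003 of chromosome 16 on the plus strand, had 318, 774 and 565 reads in the controls and 0, 6 and 0 in the CTTN libraries. Its share was 21.7, 44.8 and 35.9% in the controls and 0, 0.41 and 0% in the CTTN libraries. It was all but missing from every CTTN library. These are estimated counts, divided among overlapping transcripts of the gene, so a value of 0 also carries the error of that division, which was not measured. The share fell by 34.0 points (adjusted p = 0.00134), and it passed the test whichever single library was left out (0.0000724 to 0.0407) and without CTTN libraries 1 and 3 (0.00186). By limma it did not pass (adjusted p = 0.338).

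The CHD9 start whose sequence is given above lies 101012 bases upstream of the lost one and leads to the same start codon. It had 30.1, 21.1 and 35.3% in the controls and 30.1, 69.7 and 49.3% in the CTTN libraries, and CTTN library 1 fell inside the control range. The retained-intron start of CHD9 had 48.2, 34.1 and 28.9% against 69.9, 29.9 and 50.7%, where CTTN library 2 fell inside it. Neither of these passed the test (adjusted p = 1).

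Of the 15 starts that gained share, 7 had no overlap between the groups. They belong to genes of RNA processing (HNRNPU and HNRNPK, which bind nascent RNA, SF3B1, a core subunit of the spliceosome, and ACIN1, a splicing-associated nuclear protein), protein folding (CCT3, a chaperonin subunit, and PRKCSH, the beta subunit of glucosidase II) and lysosomal breakdown (GUSB, beta-glucuronidase). The GUSB start, 2 bases after the leading one in the window above, had 19, 4 and 5 reads in the controls and 218, 18 and 1173 in the CTTN libraries. That was a share of 0.49, 0.11 and 0.13% against 5.41, 0.53 and 26.1% (adjusted p = 0.00138). CTTN library 2 lay just above the highest control, while CTTN library 3 was far above all others. The transcript that leads this GUSB start has 1742 bases, against 2300 for that of the leading start. In this share a start base and a splice form cannot be told apart.

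The SF3B1 start, at 197402452 on chromosome 2, minus strand, and 32576 bases downstream of the start printed above, had 0 reads in each control and 1192, 15 and 3952 in the CTTN libraries. Its share was 13.5, 0.15 and 54.5% in CTTN libraries 1, 2 and 3 (adjusted p = 0.0266). Its position was taken from an annotated transcript of the group, while a splice form not in the annotation held 100% of its mean reads. The leading SF3B1 start had 96.2, 96.9 and 96.1% in the controls and 80.4, 96.2 and 39.2% in the CTTN libraries. In CTTN library 2 it thus stayed inside the control range, and in CTTN library 3 it no longer led.

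The CCT3 start 29 bases after the first had 3.57, 3.52 and 3.29% in the controls and 14.9, 4.11 and 46.6% in the CTTN libraries (gain of 18.4 points, adjusted p = 0.0303). Its leading transcript is annotated as a target of nonsense-mediated decay although its start codon is that of the leading transcript. That transcript has 1885 bases, against 2150 for that of the first start, so a start base and a splice form cannot be told apart here. The HNRNPU start at 244860536 on chromosome 1 had 0.01, 1.98 and 1.70% against 13.9, 2.35 and 40.0% (17.5 points, adjusted p = 0.00718). In both genes CTTN library 3 was the highest and CTTN library 2 the nearest to the controls.

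For HNRNPK, the start at 83978452 on chromosome 9, which shares its start codon with the leading one, had 7.05, 3.96 and 5.68% in the controls and 13.9, 7.32 and 32.4% in the CTTN libraries (12.3 points, adjusted p = 0.00747). The ACIN1 start, placed at 23062770 on chromosome 14, had 0.67, 0.56 and 0.36% against 6.50, 0.84 and 33.01% (12.9 points, adjusted p = 0.0077). Its position and retained-intron type were taken from an annotated transcript of the group. A splice form not in the annotation held 100% of its mean reads. The PRKCSH start at 11436118 on chromosome 19, which is the first base of the start codon, had 0.90, 6.68 and 4.04% against 15.2, 10.3 and 34.1% (15.96 points, adjusted p = 0.028). In each the lowest CTTN library was CTTN library 2.

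In the remaining 8 starts that gained share, CTTN library 2 lay inside the control range in 4 and below every control in 4 (ACTN1, DDX42, KTN1 and SREBF1). The largest gain was that of ACTN1, an actin cross-linker, whose start 1874 bases downstream of the first had 0.38, 0.09 and 0.01% in the controls and 17.7, 0 and 50.1% in the CTTN libraries (adjusted p = 0.0203). In DROSHA, the nuclease that begins microRNA processing, a retained-intron start 108788 bases downstream had 1.68, 0.43 and 0.58% against 9.61, 1.5 and 38.6% (adjusted p = 0.0415). In ANLN, an actin-binding protein of the cleavage furrow, a start 13631 bases downstream had 0.05, 0.14 and 0% against 9.55, 0.12 and 23.6% (adjusted p = 0.036). In each of these genes the pair of CTTN libraries 1 and 3 was high while CTTN library 2 was not. Splice forms not in the annotation held 99.8% of the mean reads of the ACTN1 start and 99.3% of the ANLN start. The positions of these starts were taken from another, annotated transcript of the group.

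The other 5 of these belonged to SMPD4, a sphingomyelin phosphodiesterase, DDX42, an RNA helicase, TBC1D9B, KTN1, a kinesin-binding protein of the endoplasmic reticulum, and SREBF1, the transcription factor of lipid synthesis. The SMPD4 start had 0.65, 0 and 0.08% in the controls and 9.96, 0.45 and 42.9% in the CTTN libraries. The SREBF1 start had 6.70, 5.36 and 4.82% against 10.5, 4.75 and 35.1%. By annotated transcript, 9 of the 17 starts were protein coding and 4 had a retained intron. Another 2 had no defined coding sequence and 2 were decay targets. A splice form not in the annotation led 4 of the 17.

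None of the 15 starts that gained share passed the test without CTTN libraries 1 and 3, with adjusted p between 0.69 and 1. When 1 library was left out, none of the 15 passed without control 2, control 3 or CTTN library 3, with GUSB lowest each time at an adjusted p of 0.0622, 0.0679 and 0.0837. Without control 1, 4 of them passed, without CTTN library 1, 6, and without CTTN library 2 all 15. Of the 17, those that passed with CTTN library 2 as the only CTTN library were the starts of CTTN and CHD9. That comparison of 1 CTTN library with 3 controls, which takes the spread of the CTTN group from the controls, called 45 of the 8860 members tested (0.508%, background 0.318%), 6 with a gain and 39 with a loss.

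A difference of 10 points or more between the group means was common and seldom uniform. It was found in 2623 members (30.1% of the 8728, against a background of 16.1%), 1314 higher and 1309 lower in the CTTN group, from 1361 genes. Shares are of the kept starts of a gene for members and of all its tested starts for the background, so these figures are not measured alike. In 1213 of the 2623, CTTN library 2 lay inside the control range. With CTTN library 2 as the only CTTN library, 659 members (7.55%) differed from the control mean by 10 points or more, against a background of 7.74%. In 388 members (4.45%, background 3.11%) the groups did not overlap. Asking that every CTTN library lie 10 or more points from the control mean on the same side, without overlap, left 92 members of 53 genes (1.05%, background 1.04%), a share near the background. These 92 were protein coding in 80 cases (87.0%), and the median transcript that led them was 4220 bases long, against 3062 bases for all members. Their median mean count was 532 reads against 772, and their median difference was 24.1 points. Of the 92, 2 had an adjusted p under 0.05 (the starts of CTTN and CHD9) and 15 an unadjusted p under 0.05.

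Some of these 92 starts are given here as examples, chosen after their values were seen. The 2 starts of TPM1, which makes the long and the short tropomyosins that coat actin filaments, lie 5786 bases apart on chromosome 15 with separate start codons. The upstream start had 50.1, 52.3 and 51.4% of the reads in the controls and 36.1, 37.6 and 27.7% in the CTTN libraries. The internal start, printed above, had 49.9, 47.7 and 48.6% against 63.9, 62.4 and 72.3%. The means were 17.4 points apart, with an SD of 1.07 points in the controls and 5.32 points in the CTTN group, but the usage test gave an adjusted p of 1 for each.

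STMN1, which binds tubulin dimers, had a start with 64.9, 64.1 and 58.8% in the controls and 78.6, 88.9 and 88.9% in the CTTN libraries. Its fitted log2 change relative to the gene was -0.04, so the test gave no gain. This start had a mean of 537 reads in the controls and 580 in the CTTN group, and its partner start had 319 and 103. KMT5B, a histone H4 lysine methyltransferase, had a start with 42.4, 44.7 and 43.4% against 66.2, 54.4 and 77.4%. LAMB3, a chain of the basement membrane protein laminin-332, had a start with 22.5, 18.1 and 30.1% against 51.2, 44.3 and 83.8%. In these 3 genes the lowest CTTN library was well above the highest control, although each start had an adjusted p of 1.

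NCOA4, the receptor that takes ferritin to autophagy, had a start with 68.0, 77.6 and 73.9% in the controls and 90.3, 84.2 and 88.1% in the CTTN libraries (difference of the means 14.4 points). CSAD, an enzyme of taurine synthesis, had 35.9, 37.3 and 34.6% against 49.3, 49.8 and 47.4%. TMEM243 had 49.6, 55.8 and 46.0% against 76.7, 84.0 and 76.5%. ROGDI had 16.1, 20.6 and 21.1% against 49.3, 42.9 and 44.5% for a decay-target form that begins at the same base as another kept start, so its share is that of a splice form. None of these 4 starts passed the test, and each had an adjusted p of 1.

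Genes with well-known alternative promoters made up the first of 5 gene lists. Of its 32 genes, 24 had 2 or more kept starts, with 94 members, of which 1 gained share (SREBF1) and none lost it by the test. The background of such calls was 0.119%. DESeq2 called 2 members of this list and limma 1, but neither called the SREBF1 start (adjusted p = 0.527 and 0.239). A difference of 10 points or more was found in 29 of the 94 (30.9%), near the 30.1% of all members and above the 16.1% of all tested starts, and 5 (5.32%) had it in CTTN library 2 alone. The median difference without regard to sign was 3.12 points, against 4.94 over all members and 1.82 over all tested starts. In several of these genes CTTN libraries 1 and 3 lay far from the controls while CTTN library 2 lay near them. NR3C1, the glucocorticoid receptor, had a leading start with 79.2, 82.4 and 83.9% in the controls and 48.0, 87.2 and 24.3% in the CTTN libraries. LPIN1, a phosphatidate phosphatase, had a start with 27.7, 15.9 and 12.6% against 41.9, 18.3 and 86.5%. ACACA, acetyl-CoA carboxylase, had a leading start with 66.2, 69.3 and 68.8% against 42.6, 75.4 and 11.5%.

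In BCL2L1, GNAS and LMNA, also on that list, CTTN libraries 1 and 3 lay nearer to the controls. BCL2L1, an inhibitor of cell death, had a leading start with 72.7, 78.8 and 74.3% in the controls and 73.1, 67.6 and 76.0% in the CTTN libraries. GNAS, the stimulatory G protein subunit, had 80.8, 80.5 and 78.0% against 73.8, 78.7 and 71.8%. LMNA, which encodes the nuclear lamins A and C, had 81.5, 85.5 and 86.2% against 81.4, 86.8 and 75.3%. MDM2, whose internal promoter is a known target of p53, had a start with 9.18, 10 and 13.2% against 2.46, 13.3 and 30.3%, where the CTTN libraries lay on both sides of the controls.

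**Figure D2:**
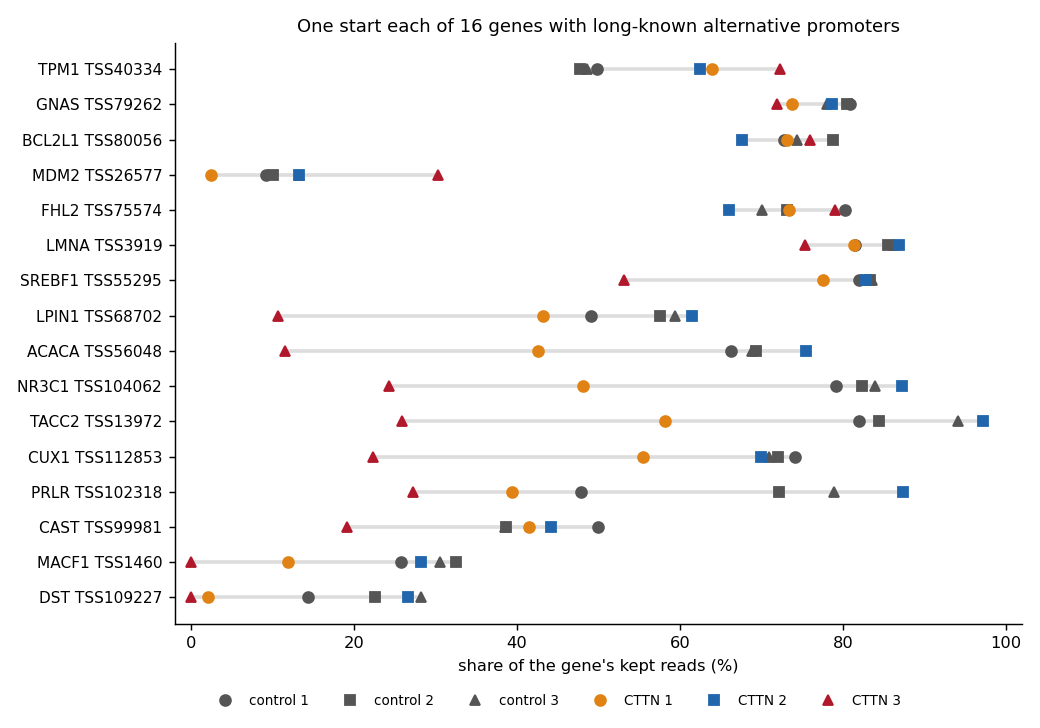
Share of the gene's kept reads (percent) for 1 start of each of 16 genes with well-known alternative promoters, 1 symbol per library and a grey line over the range. NR3C1 and ACACA are low in CTTN libraries 1 and 3 and above the control range in CTTN library 2, and BCL2L1 lies between 67.6 and 78.8% in all 6.

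Genes of actin, adhesion and cytoskeletal links, among which CTTN belongs, had more such differences between the group means than the other 4 lists, but not in CTTN library 2 alone. Of 40 genes, 27 had 2 or more kept starts, with 82 members. By the test, 2 of these gained share (ACTN1 and ANLN) and 1 lost it (CTTN). The starts of ACTN1 and ANLN, with control means of 9.66 and 8.78 reads, were kept only through the CTTN group. Their comparison with the background is therefore a description. DESeq2 called 5 members of the list and limma 3. The ACTN1 start did not pass in DESeq2 (adjusted p = 0.0607) or limma (0.719), and the ANLN start did not in limma (0.681). The call of CTTN held without CTTN libraries 1 and 3, and the background was 0.119%. A difference of 10 points or more was found in 34 (41.5%, against 30.1% of all members and 16.1% of all tested starts), and 4 (4.88%, background 7.74%) had it in CTTN library 2 alone. The median difference was 8.36 points, against 4.94 over all members. In MYH9, nonmuscle myosin heavy chain, the leading start had 89.0, 95.8 and 97.8% in the controls and 71.3, 99.6 and 37.6% in the CTTN libraries. In CTNNA1, the actin-linking alpha-catenin, it had 98.2, 98.4 and 98.4% against 84.6, 98.4 and 47.8%. In both, CTTN library 2 was inside or above the control range and CTTN library 3 the lowest of the 6. KRT18, a simple-epithelium keratin on the same list, had a leading start with 98.05 to 98.7% in all 6 libraries.

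Of 33 genes of Wnt signalling, the pathway by which secreted Wnt ligands stabilise beta-catenin, 18 had 2 or more kept starts, with 42 members. None passed the test in edgeR, DESeq2 or limma, and 1 of the 42 tested had an unadjusted p under 0.05 in edgeR (background 3.87%). That number was 6 of 93 tested for alternative promoters, 14 of 80 for actin and adhesion, 13 of 114 for RNA processing and 3 of 44 for receptor and lipid genes. Among the Wnt members a difference of 10 points or more was found in 16 (38.1%, against 30.1% of all members and 16.1% of all tested starts). In CTTN library 2 alone 3 (7.14%) had it. The median difference, 4.93 points, was near that of all members (4.94). CTNNB1, beta-catenin itself, had a leading start with 61.8, 66.0 and 64.4% in the controls and 61.5, 63.3 and 64.2% in the CTTN libraries. DVL1, which relays the signal from the receptor, had 68.0, 69.5 and 69.4% against 69.8, 64.7 and 71.5%. AXIN1, the scaffold of the complex that degrades beta-catenin, had 69.9, 66.7 and 71.8% against 59.2, 77.3 and 31.0%. The groups overlapped in each.

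Other Wnt genes differed by more. CREBBP, a coactivator that binds beta-catenin, had a start with 2.80, 0.01 and 0% in the controls and 41.2, 0 and 78.4% in the CTTN libraries. FBXW11, the ubiquitin ligase subunit that recognises phosphorylated beta-catenin, had a start with 92.7, 99.9 and 97.5% against 58.2, 85.3 and 30.5%. In CREBBP the value of CTTN library 2 was among the lowest, and in FBXW11 it was below every control.

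The list of RNA processing and translation had 34 genes, 29 of them with 2 or more kept starts, and 115 members. Of these, 3 gained share by the test (HNRNPK, HNRNPU and SF3B1) against a background of 0.119%, and none of these passed without CTTN libraries 1 and 3. In DESeq2 HNRNPK (adjusted p = 0.242) and HNRNPU (0.356) did not pass, and in limma SF3B1 (0.674) did not. The SF3B1 start, with 0 reads in each control, was kept only through the CTTN group, so its comparison with the background is a description. A difference of 10 points or more was found in 16 (13.9%), below the 16.1% of all tested starts and the 30.1% of all members, and in CTTN library 2 alone it was found in 0. The median difference was 2.67 points. HNRNPA1, a splicing repressor, had a leading start with 81.0, 82.7 and 82.7% in the controls and 84.0, 84.1 and 83.3% in the CTTN libraries, and EIF5A, a translation factor, had 60.0, 62.7 and 60.7% against 63.0, 63.5 and 62.6%. The list of receptor and lipid metabolism genes had 20 genes, 11 with 2 or more kept starts, and 44 members. Of these, 1 gained share (SREBF1, which the first list also holds), against a background of 0.119%, and in DESeq2 and limma this start did not pass (adjusted p = 0.527 and 0.239). A difference of 10 points or more was found in 13 (29.5%), near the 30.1% of all members, and 1 (2.27%) had it in CTTN library 2 alone. The median difference was 1.21 points. FASN, fatty acid synthase, had a start with 37.9, 42.7 and 47.1% against 27.4, 52.8 and 12.3%.

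ERBB2 was among the genes with the most starts, with 9. Its leading start in the controls had 60.2, 64.2 and 67.8% there and 47.0, 69.1 and 27.6% in the CTTN libraries. Its next start had 32.3, 28.6 and 24.7% against 47.8, 23.2 and 68.6%, so that the order of these starts was turned in CTTN libraries 1 and 3 and kept in CTTN library 2. DYNC1H1, the heavy chain of dynein, had 10 starts. The first of them had 42.6, 50.3 and 52.6% against 19.1, 54.4 and 7.51%. A start 77202 bases downstream had 9.61, 6.01 and 6.58% against 21.1, 6.02 and 44.4%. ACADVL, an enzyme of fatty acid oxidation, also had 10, of which none differed by more than 3.48 points between the group means. Its leading start had 72.4, 77.2 and 75.7% against 74.0, 74.3 and 66.6%.

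The level of each start, without regard to its gene, was tested as well. Of the 8864 members tested, none passed in edgeR at an adjusted p under 0.05 (background 0%), and 1041 (11.7%) had an unadjusted p under 0.05, against a background of 9.94%. DESeq2 called 352 of 8813 members (3.99%, background 4.2%) and limma with sample quality weights 3064 (34.6%, background 25.4%). Without CTTN libraries 1 and 3, edgeR called 4 (0.0451%, background 0.00958%).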

How the data were processed

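RNA-seq of 3 control and 3 CTTN samples of SKBR3 cells was analysed from tables deposited by the authors. The start-group and gene tables hold estimated counts, scaled by the authors with a factor of 0.902 to 1.15 per library, and FPKM values. The submitters' processing notes name bcl2fastq 2.20.0, Trimmomatic, STAR, Cufflinks and GRCh38, while the study's methods name another trimmer, an older build and edgeR. Positions in the deposited tables are those of GRCh38. Each start was placed at its most-read transcript that matched an annotated one, which also gave its type and start codon. Where a splice form not in the annotation led, this was not the leading transcript. Whether counting used strand is not given in the sources used here, so reads of overlapping genes may have been shared. Which members this touches was not tested. The 3 control columns were mapped to their group and not to single samples.

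Estimated counts were rounded to whole numbers. Usage was tested in R 4.3.3 with edgeR 4.0.16 (TMM, filterByExpr, robust glmQLFit, diffSpliceDGE) over all start groups of genes with 2 or more, and level with glmQLFTest, each with Benjamini-Hochberg adjustment. Of the members, 8858 could be tested for usage and 40 could not. limma 3.58.1 and DESeq2 1.42.0 served as alternatives. Shares, sequences and exact permutation tests over samples were computed with numpy 2.4.6, pandas 2.3.3 and scipy 1.17.1. The usage test was checked on simulated data, where it passed somewhat more unchanged starts than its nominal rate. The simulated libraries all had the same spread, without the differences among the CTTN libraries described above, so the check gives no error rate for these data. Starts were named when the adjusted p was under 0.05, the share differed by at least 10 points and the groups did not overlap. CTTN, the genes with the most starts and examples from 5 gene lists were added, and other starts named were chosen after their values were seen. The members and lists were chosen with earlier results of these data known. P-values measure the spread between these samples.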

Additional observations from a re-analysis of the deposited data

How the results depend on the processing

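The number of starts with a different share, 17, was 47 with no filter on low counts, 2 with the kept starts alone in the fit, 10 by limma, 46 by DESeq2, 28 with no minimum on the share difference, 9 with a mean of at least 500 reads and 6 with at least 200 reads in each group. It was 17 with DESeq2 size factors, 18 with the library scale removed and 25 with at least 100 reads. Of the 17, limma called 4 and DESeq2 7. Leaving out 1 library at a time gave 3 to 390, the highest without CTTN library 2 and the lowest without control 2, control 3 or CTTN library 3. Alternatives chosen after seeing the data gave 1654 with limma sample quality weights, 5 with the reads in transcripts over 5 kb as a covariate (2 shared, with 0 of the 15 gained starts), 16 in loci with 1 gene name, and 17 without CTTN libraries 1 and 3, of which 2 were shared. Of the 9 starts named by the usage rule, 9 kept a difference of 10 points when 1 library was left out, except that 2 did without CTTN library 3, so the range was 2 to 9, 8 did with shares of all start groups of the gene (GUSB had 9.84 points), and 2 did without CTTN libraries 1 and 3. The level test called 0 members in edgeR under each planned edgeR setting (1041 at an unadjusted p under 0.05), 352 in DESeq2, and, in alternatives added later, 3064 with limma weights and 4 without CTTN libraries 1 and 3. The log2 change of CTTN, 1.35, was 1.10 to 1.57 when 1 library was left out, and it missed the threshold without control 1, control 2, control 3 or CTTN library 1 (adjusted p 0.137 to 0.170). The cause of these differences was not tested. The replicate block, by the library numbers, gave 4 starts (3 of the 17), 0 members by level and 1.30 for CTTN (adjusted p = 0.0651). The numbers did not pair the libraries: deviations from the group means correlated at 0.0805, 0.0853 and -0.135 within numbers 1, 2 and 3, and not every library correlated best with its own number. Low counts limit the rarer starts, and each group had 3 libraries.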

Other observations

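With CTTN library 2 as the only CTTN library against the 3 controls, 45 members had an adjusted p under 0.05 in edgeR, 39 with a loss and 6 with a gain. The spread of a lone library is assumed here to equal that of the controls. CCSAP, which encodes a protein of centrioles and the spindle, had the largest share difference. Its gaining start had 0.09, 0.42 and 0.11% in the controls and 24.6, 95.4 and 47.7% in CTTN libraries 1, 2 and 3 (adjusted p = 0.00125 for CTTN library 2 alone and 0.0609 for all 6 libraries). The 3 CTTN libraries all lay above the controls, and CTTN library 2 was the highest. GGA3, an adaptor of trafficking from the trans-Golgi network, had a start with 5.79, 12.9 and 7.72% in the controls and 3.23, 37.2 and 4.13% in the CTTN libraries (adjusted p = 0.0118 for CTTN library 2 alone). In GGA3, CTTN library 2 was the highest of the 6 libraries while CTTN libraries 1 and 3 lay below the control mean.

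In some loci the shares differed little. CLDN7, a tight junction claudin, shares an assembled locus of 10 kept starts with neighbouring genes. Its leading start held 48.6, 48.5 and 47.4% of the reads of that locus in the controls and 49.6, 50.6 and 47.5% in the CTTN libraries, and no start of the locus differed by more than 1.29 points between the group means. GRB7, an adaptor amplified together with ERBB2, had a leading start with 61.3, 59.3 and 59.0% against 63.2, 60.2 and 72.5%, where CTTN library 3 lay above the other 5.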
